A study of Mus musculus with 4 samples.

Results

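The genes described here are 9 adhesion genes of neutrophils: Selplg, Cd44, Itgb2, Itgal, Itgam, Itgax, Icam1, Ly6g and Ceacam1. They were taken by symbol, 9 of the 18894 genes listed in the RNA files of tumor and blood neutrophils, and all 9 were listed for both tissues. The cells came from 3 untreated FVB mice, an inbred strain, that carried tumors of Py7160 cells, a mouse mammary tumor line. Tumor neutrophils were collected 2 to 3 weeks after injection, when tumors measured about 1 cm across, and were freed with enzymes. Blood neutrophils came from the same mice after lysis of red cells. Ages are not given in the labels, and no group of mice without a tumor was analysed here. Cells of both tissues were selected on Ly-6G and then sorted on CD11b and Ly6G, so the proteins of Itgam and Ly6g were themselves used to choose the cells. The 3 mice of a tissue were tagged with hashtag antibodies, pooled and taken through Drop-seq together, so each tissue has 1 RNA library. Drop-seq captures cells in droplets and counts their RNA molecules as UMIs under a barcode per cell. Differences between tissues, between libraries and between the ways of freeing the cells therefore cannot be told apart, and every p-value below measures the spread between mice within a library. Whether a hashtag number stands for the same mouse in both tissues is not stated.

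Neutrophils leave blood in steps. PSGL-1, encoded by Selplg, and CD44 bind selectins on the vessel wall and let the cell roll, after which β2 integrins, pairs of the shared chain CD18 (Itgb2) with CD11a (Itgal), CD11b (Itgam) or CD11c (Itgax), bind ICAM-1 and other ligands and hold the cell in place. ICAM-1 (Icam1) is best known on endothelium and is also made by activated leukocytes. Ly6G (Ly6g), a lipid-anchored surface protein of mouse neutrophils, and CEACAM1 (Ceacam1), an immunoglobulin-like adhesion molecule with an inhibitory tail, complete the set.

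Each mouse was recognised by 1 of 3 hashtags, whose sequences decided which cells entered which of the 6 sums of UMIs compared here. They are printed since the share of hashtag 2 in barcodes with few UMIs touches the results for Ly6g and Ceacam1.
hashtag 1: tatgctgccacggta
hashtag 2: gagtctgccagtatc
hashtag 3: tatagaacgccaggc

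A cell was a barcode with at least 200 detected genes and at most 15% of UMIs from mitochondrial genes, and it was given to the mouse whose hashtag held at least 70% of its hashtag counts. This gave 106, 564 and 171 tumor cells of mice 1, 2 and 3 with 572844 UMIs, and 511, 456 and 408 blood cells with 1147068 UMIs. The median depth was 572 UMIs in tumor cells and 655 in blood cells, and the libraries shared 0 cell barcodes. Hashtag 2 stood apart in tumor barcodes with 20 to 60 UMIs, which cannot reach 200 genes and so were not taken as cells. Whether some of these barcodes hold cells poor in RNA was not tested. Hashtag 2 held 68.9% of their hashtag counts in tumor, against 41.7% in blood. Of these tumor barcodes that had hashtag counts, 69.9% would pass the 70% rule for mouse 2, against 11.9% in blood. HTODemux, a demultiplexing method that calls a hashtag against its own background, gave 235 of the 564 tumor mouse 2 cells to the same mouse and no mouse to 230. Set against the sort, all 11 neutrophil markers were detected in both tissues, and 750 tumor cells (89.2%) and 1367 blood cells (99.4%) carried at least 2 of them. All 12 monocyte and macrophage markers were found in tumor, at 411 to 2773 CPM (UMIs scaled to a common total per mouse) summed over the list, against 5 of 12 in blood at 305 to 439 CPM, where the C1q genes and Mrc1 were among those at 0. Markers of MHC class II cells stood at 156 to 2857 CPM in tumor, with the dendritic cell genes Flt3, Xcr1, Ccr7 and Siglech at 0, and at 36.6 to 139 CPM in blood. Other markers were higher in blood. The 7 erythroid markers had 0 UMIs in tumor, against 13960 to 22165 CPM in blood, where 48.6% of cells carried at least 2 of them, and T and NK cell markers had 18 UMIs in tumor and 310 in blood. The 6 lower genes and Icam1 kept their calls without the hemoglobin genes and without cells that carried at least 2 markers of another cell type other than erythroid.

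Between the tissues, 6 of the 9 genes were lower in tumor neutrophils, Icam1 was higher, and Itgax and Cd44 were not called (edgeR's quasi-likelihood test with Benjamini-Hochberg adjustment over 3674 genes, threshold 0.05). The same test called 29.8% of all genes lower and 30.2% higher, so a call by itself is common in these data. The 3 tumor values and the 3 blood values did not overlap for 7 of the 9 genes, against 63% of all genes tested. The median log2 fold change was −0.77 over the 9 genes and −0.042 over all genes. All 9 passed the low-count filter, and fold changes below are tumor over blood with a standard error derived from the F statistic.

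**Figure D1:**
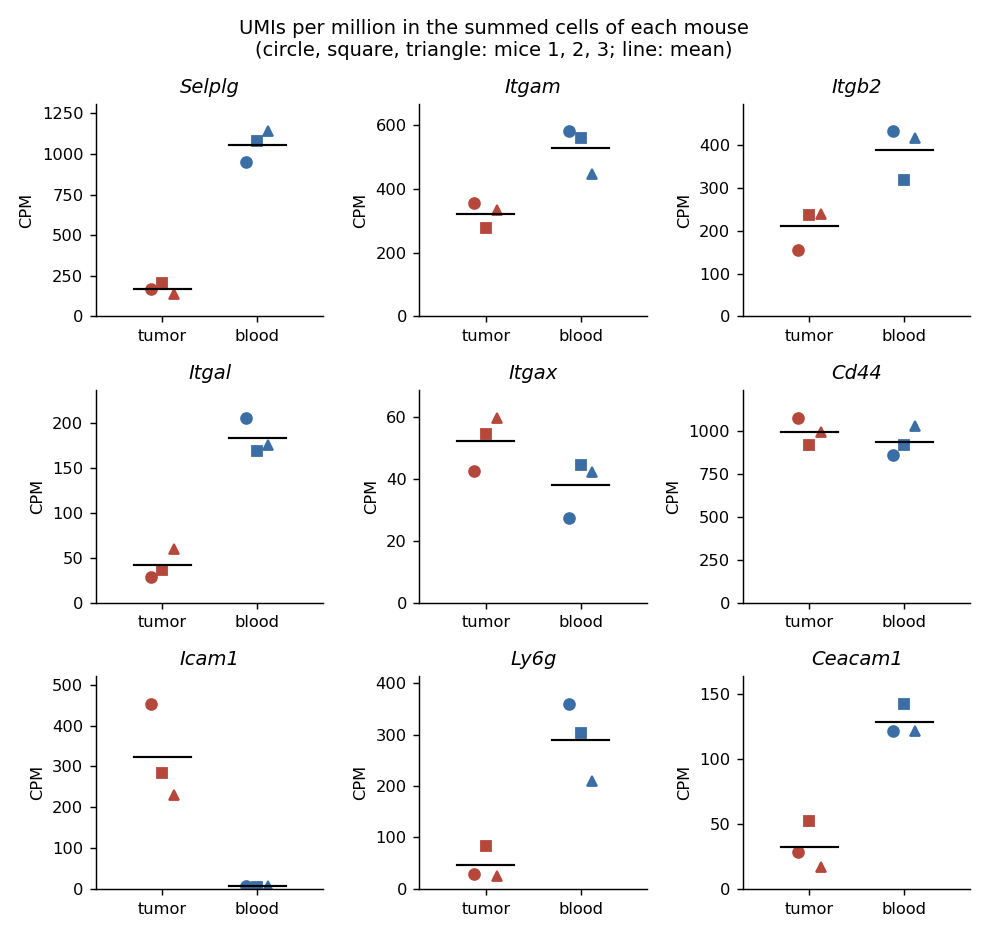
Level of each of the 9 genes in CPM, 1 panel per gene with its own linear axis from 0, tumor left of blood, 1 symbol per mouse and a line at the mean of 3 mice. Icam1 lies between 231 and 453 CPM in tumor mice and between 5.26 and 6.87 CPM in blood mice, while the points of Cd44 and Itgax overlap.

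Selplg, the ligand that all 3 selectins can bind, was among the genes that fell furthest. It stood at 169.9, 202 and 137 CPM in tumor mice 1, 2 and 3, and at 953, 1081 and 1138 CPM in blood mice. Every tumor mouse was far below every blood mouse. Its log2 fold change of −2.51 ± 0.17, from 106 UMIs in tumor and 1203 in blood, had an adjusted p of 1.50e-09 in edgeR and placed Selplg at the 3.62 percentile of fold changes over all genes tested. Cd44, the receptor for the matrix sugar hyaluronan and a ligand of E-selectin, was not called. Its level was 1076, 916 and 993 CPM in tumor mice and 861, 916 and 1029 CPM in blood mice. These ranges overlap, and edgeR gave 0.10 ± 0.13 on the log2 scale with an adjusted p of 0.524. Taken as 2 standard errors on either side, the range runs from −0.16 to 0.35. The fitted value of Selplg lies outside that range. The sign for Cd44 turned under 5 of 20 other settings. The ratio of Selplg to Cd44 UMIs within a sum, which needs no scaling between libraries, was 0.172 ± 0.0433 in tumor and 1.13 ± 0.0432 in blood (SD, n = 3 mice each; exact two-sided permutation p = 0.1, the smallest that 3 against 3 mice allow). This and the other ratios below were chosen after the values had been seen.

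Of the β2 integrin chains, Itgb2, Itgam and Itgal fell and Itgax was not called. Itgb2, the shared β chain, stood at 156, 236 and 239.6 CPM in tumor mice and 433, 318 and 418 CPM in blood mice. The groups did not overlap, and edgeR gave −0.77 ± 0.19 on the log2 scale with an adjusted p of 0.00246. Itgam, the α chain of Mac-1 and the gene of the sorted protein CD11b, stood at 354, 278 and 334 CPM in tumor mice and 579, 558 and 445 CPM in blood mice. All tumor mice were below all blood mice, and edgeR gave −0.75 ± 0.17 on the log2 scale with an adjusted p of 0.00103. The ratio of Itgb2 to Itgam UMIs was 0.669 ± 0.209 in tumor and 0.752 ± 0.184 in blood, and its 2 groups overlapped (SD, n = 3; exact permutation p = 0.6).

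Itgal, the α chain of LFA-1, the pair best known for binding ICAM-1, also fell. It had 28.3, 36.3 and 59.9 CPM in tumor mice and 206, 168 and 176 CPM in blood mice. The tumor values rest on 2, 14 and 7 UMIs, yet all lie far below blood. The difference was −2.13 ± 0.28 on the log2 scale, with an adjusted p of 5.76e-06 in edgeR. Itgax encodes the α chain CD11c and is also used to mark dendritic cells. It had 42.5, 54.5 and 59.9 CPM in tumor mice and 27.5, 44.7 and 42.4 CPM in blood mice. The values overlap, and the fitted 0.56 ± 0.36 on the log2 scale did not pass the test (adjusted p of 0.191 in edgeR). With 31 UMIs in tumor and 43 in blood, its range of about −0.16 to 1.28 includes both 0 and 1. The 52 tumor cells with at least 2 macrophage or at least 2 MHC class II markers held 2 of the 31 Itgax UMIs.

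Set against each other within a sum, the 3 α chains divided their UMIs differently in the tissues. Itgal made up 6.67%, 9.86% and 13.2% of the Itgal, Itgam and Itgax UMIs in tumor mice, and 25.4%, 21.8% and 26.5% in blood mice. Itgax made up 12.7% ± 2.44 in tumor and 5.19% ± 1.60 in blood, and Itgam 77.4% ± 5.19 in tumor and 70.2% ± 2.76 in blood (SD, n = 3). For each α chain the tumor and blood mice did not overlap, with an exact two-sided permutation p of 0.1, the smallest this design allows. The 3 shares of a sum depend on each other, so these are not separate results. In barcodes with 20 to 60 UMIs, below the cell filter, Itgal, Itgam and Itgax had 12, 88 and 12 UMIs in tumor. In those of blood they had 52, 119 and 14, so the RNA of such barcodes also held less Itgal relative to Itgam in tumor. What part such RNA has in the shares was not tested. These shares count UMIs of 3′ ends and are not scaled to transcript length, so they compare tissues and not the abundance of one chain with another.

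Icam1 was the gene that rose. It had 453, 283 and 231 CPM in tumor mice, and 6.87, 5.26 and 6.06 CPM in blood mice. The blood values rest on 3, 2 and 2 UMIs, against 32, 109 and 27 in tumor. The ratio of pooled levels was 48.1, with an exact 95% interval of 22.8 to 121 that covers counting error only, and the fitted difference was 5.56 ± 0.36 on the log2 scale, with an adjusted p of 6.70e-10 in edgeR. Leaving out each mouse in turn kept it between 5.34 and 5.69. Icam1 stood at the 98.4 percentile of all fold changes. At most 7 Icam1 UMIs were seen in a tumor cell and 1 in a blood cell.

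Ly6g, whose protein was used in the sort, was low in tumor RNA. It had 28.3, 83.0 and 25.7 CPM in tumor mice and 359.5, 303 and 209 CPM in blood mice. The groups did not overlap, but tumor mouse 2 stood well above the others and held 32 of the 37 tumor UMIs. On the log2 scale the difference was −2.19 ± 0.32, with an adjusted p of 1.99e-05 in edgeR, and −3.41 without tumor mouse 2. Relative to Itgam in the same sum, Ly6g stood at 0.152 ± 0.127 in tumor and 0.544 ± 0.0756 in blood (SD, n = 3; exact permutation p = 0.1). Ceacam1 showed the same unevenness. It had 28.3, 51.9 and 17.1 CPM in tumor mice, from 2, 20 and 2 UMIs, and 121, 142 and 121 CPM in blood mice. Its difference was −1.59 ± 0.32 on the log2 scale, with an adjusted p of 3.77e-04 in edgeR, and −2.53 without tumor mouse 2. With HTODemux in place of the 70% rule it was −1.99, and that of Ly6g −2.93.

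**Figure D2:**
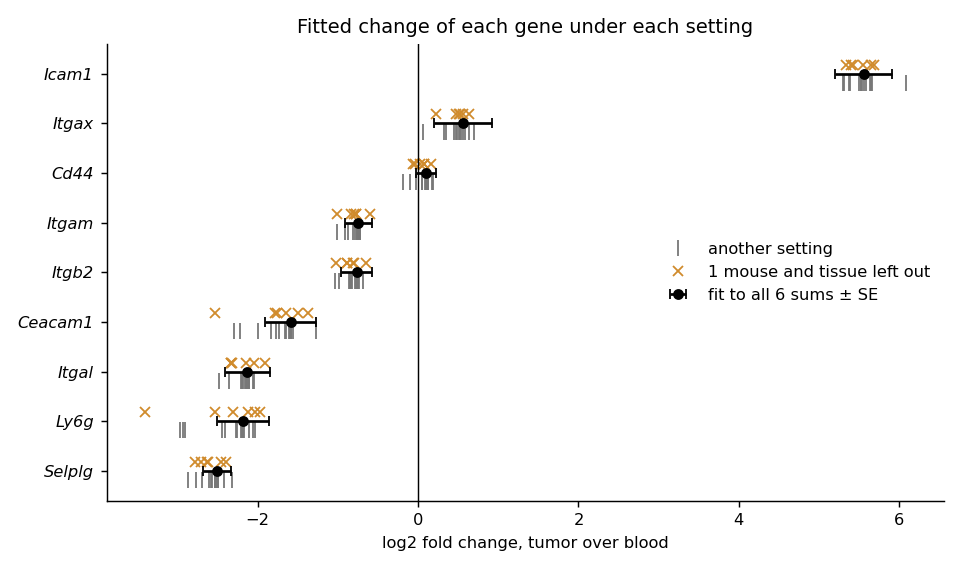
Log2 fold change, tumor over blood, of each of the 9 genes as a black point with its standard error, the values with 1 mouse and tissue left out as crosses and those under another setting as ticks. Icam1 stays between 5.30 and 6.09 and Selplg between −2.86 and −2.32, whereas Ly6g spreads from −3.41 to −1.97 and Cd44 crosses 0.

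Within a tissue, Ly6g and Ceacam1 were concentrated in the cells that carried granule genes. Cells with at least 2 of 10 granule genes of immature neutrophils, such as Camp and Ngp, numbered 45 in tumor (2, 33 and 10 per mouse) and 158 in blood (68, 53 and 37 per mouse). Levels in these classes are descriptions over pooled cells with no test, and the granule-gene cells are deeper, with a median of 1129 UMIs against 555 in the other tumor cells and 1474.5 against 613 in blood. Ly6g stood at 452 CPM in the granule-gene cells of tumor and 19.4 CPM in the other tumor cells (exact 95% intervals 300.5 to 654 and 8.89 to 36.9), so 45 cells held 28 of its 37 tumor UMIs. In blood the levels were 799.9 CPM in the granule-gene cells and 139 CPM in the others, with 222 of 341 UMIs in the granule-gene cells. Ceacam1 stood at 194 and 21.6 CPM in those classes of tumor, and at 349.5 and 59.0 CPM in those of blood. Within each class both genes stood lower in tumor than in blood, though the intervals of Ceacam1 in the granule-gene cells overlapped (100.1 to 339 in tumor, 283 to 426 in blood). The granule-gene cells held 10.8% of the tumor UMIs and 24.2% of the blood UMIs. Without them Ceacam1 stood at −1.27 on the log2 scale, with an adjusted p of 0.0213 in edgeR, against −1.59 with them. Ly6g without them stood at −2.90, with an adjusted p of 3.05e-07 in edgeR, a larger fall than its −2.19 with them. In tumor mouse 2, the 230 cells without an HTODemux call held 17 of the 32 Ly6g UMIs (125 CPM), and the 235 cells that kept their mouse held 6 (34.4 CPM). Camp, the gene of a granule peptide, stood at 4071 CPM in those without a call and 11.5 CPM in those that kept their mouse. What part this has in the Ly6g and Ceacam1 values was not tested.

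Over pooled cells, Itgam was also higher in the granule-gene cells of both tissues, as was Itgb2 in those of tumor, while Selplg and Icam1 were not. Selplg stood at 161 CPM in the granule-gene cells and 190.0 CPM in the other cells of tumor, and at 566 and 1218 CPM in those of blood, so in blood it was lower in the granule-gene cells of all 3 mice. Itgam was 646 and 250.5 CPM in those classes of tumor, and 724 and 478 CPM in those of blood. In tumor, mouse 2 gave 35 of the Itgam UMIs in granule-gene cells (732 CPM) and mouse 1 gave 2. Mouse 3 gave 3 (278 CPM), a level below its 334 CPM over all cells. Itgb2 was 549 and 188 CPM in tumor and 443 and 374 CPM in blood. In the granule-gene cells the 34 tumor UMIs of Itgb2 thus gave a level no lower than in blood, whereas in the other cells all 3 tumor mice (142, 198 and 187 CPM) were below all 3 blood mice (421, 309 and 388 CPM). Icam1 had 2 UMIs in the granule-gene cells of tumor (32.3 CPM, interval 3.91 to 117) and 156 in the other tumor cells (337 CPM, 286 to 394). It was seen in the other cells of every tumor mouse, at 489, 329 and 259.9 CPM, against 9.71, 7.11 and 7.77 CPM in those of the blood mice. The 52 tumor cells with macrophage or MHC class II markers held 10 Icam1 UMIs, 185 CPM, so Icam1 was no higher in them than in the rest.

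**Figure D3:**
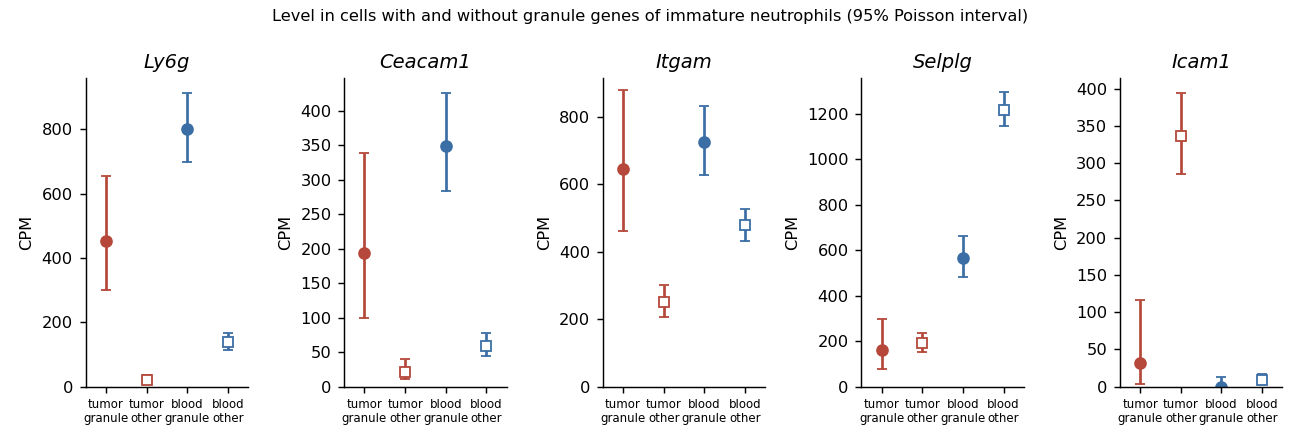
Level in CPM of Ly6g, Ceacam1, Itgam, Selplg and Icam1 in granule-gene cells (filled circles) and in other cells (open squares), tumor left of blood in each panel, with exact 95% Poisson intervals over pooled cells. Ly6g lies at 452 against 19.4 CPM in tumor and 799.9 against 139 CPM in blood, while Icam1 in tumor lies the other way, at 32.3 against 337 CPM.

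The share of cells with at least 1 UMI was compared at 441 UMIs per cell, the expected share after thinning each cell to that depth, which left out 209 tumor and 254 blood cells that were shallower. Whether a cell type in these libraries lacks all 9 genes was not examined. The RNA in barcodes with 20 to 60 UMIs was taken as the level outside cells. A cell made wholly of that RNA would hold a UMI at 441 UMIs in a share that can be computed. A Selplg UMI was found in 5.91% ± 1.72 of tumor cells and 36.9% ± 1.90 of blood cells (SD, n = 3 mice; exact permutation p = 0.1), above the 3.08% and 9.19% that outside RNA would give in tumor and in blood. Itgb2 reached 8.09% ± 1.23 of tumor cells and 14.7% ± 2.57 of blood cells, against 2.60% and 2.47% from outside RNA. Ly6g reached 1.11% ± 0.785 of tumor cells and 7.37% ± 0.533 of blood cells, against 0.492% and 1.42%. For these 3 genes the mean share lay above that of outside RNA in both tissues, although Ly6g in tumor mouse 1 (0.413%) did not.

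Shares at or below the outside share are read neither as expression per cell nor as a difference, which concerns Itgam, Itgal, Ceacam1, Itgax in blood and Icam1 in blood. Itgam was found in 11.6% ± 2.19 of tumor cells and 18.5% ± 2.79 of blood cells, and outside RNA alone would give 13.5% and 19.2%. Itgal, at 1.90% ± 0.471 of tumor cells and 7.79% ± 0.630 of blood cells, was on average likewise at or below its outside shares of 1.96% and 8.87%, and so was Ceacam1, at 0.706% ± 0.380 and 3.78% ± 0.305 against 0.819% and 4.37%. Itgax lay at 2.71% ± 0.656 of tumor cells and 1.93% ± 0.204 of blood cells, close to the outside shares of 1.96% and 2.47%. Cd44 was found in 32.8% ± 1.39 of tumor cells and 34.2% ± 3.15 of blood cells, above the outside shares of 29.9% and 20.4% in every mouse (exact permutation p = 0.6 between the tissues). In tumor, the 95% counting intervals of Cd44 in pooled cells (873 to 1035 CPM) and outside cells (702 to 921 CPM) overlapped. At 572 UMIs per cell, the Cd44 shares were 35.4% ± 0.999 of tumor cells and 41.6% ± 3.21 of blood cells, and the mice did not overlap (exact permutation p = 0.1). Icam1 was found in 11.5% ± 3.21 of tumor cells and 0.280% ± 0.104 of blood cells, where outside RNA would give 8.65% and 0.534%. All 3 tumor mice lay above the 8.65%, which rests on 55 UMIs. Even so, the 95% counting intervals of Icam1 in pooled tumor cells (251 to 341 CPM) and outside them (155 to 267 CPM) overlapped. The level outside cells was itself lower in tumor than in blood for Selplg, at 70.9 against 219 CPM, for Itgal, at 44.8 against 211 CPM, and for Ceacam1, at 18.7 against 101 CPM, with 95% intervals that did not overlap. Over pooled cells, Itgam and Ceacam1 still lay higher in the granule-gene cells than in the others beyond their 95% counting intervals, in tumor and in blood. For Itgam in tumor this rests mainly on mouse 2, and mouse 3 did not show it. How much RNA from outside the cells adds to the sums was not tested. Without thinning the shares were 9.48% and 51.2% for Selplg, 13.2% and 0.505% for Icam1, and 39.9% and 49.2% for Cd44, in tumor and in blood cells.

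**Figure D4:**
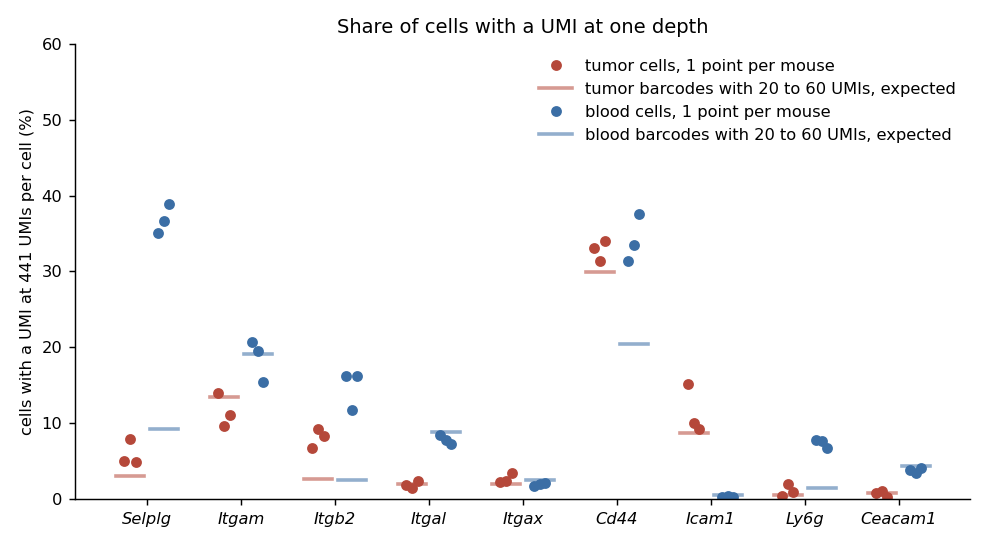
Percent of cells with a UMI of each gene at 441 UMIs per cell, 1 point per mouse, tumor left of blood, with bars for the share that RNA of barcodes with 20 to 60 UMIs would give. Selplg, Itgb2 and blood Ly6g lie above their bars, while Itgam, Itgal and blood Ceacam1 lie around or below theirs.

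Other genes of the adhesion machinery were described through 7 lists with 160 genes. Of these 65 entered the test, 13 of them higher and 34 lower in tumor, where 30.2% of all genes were called higher and 29.8% lower. The list of integrin activation and linkage to actin was the most one-sided in its calls, though the other lists had only 2 to 10 genes tested. Of its 30 genes tested 19 were lower, 1 was higher and 10 were not called. Their median log2 fold change was −1.07, against −0.042 over all genes. Among them Rasgrp4, a Ras activator of myeloid cells, fell by 2.57, the Src family kinase gene Fgr by 2.29, Rassf5, the Rap1 effector RAPL, by 2.13 and the actin crosslinker gene Flna by 1.89 on the log2 scale (edgeR, largest adjusted p of the 4 2.37e-04). Talin (Tln1) and kindlin-3 (Fermt3), which bind integrin tails, were looked at after the values were seen. Tln1 averaged 211 ± 56.7 CPM in tumor mice and 649.7 ± 57.1 CPM in blood mice, and Fermt3 63.3 ± 6.05 CPM in tumor mice and 139 ± 34.6 CPM in blood mice (SD, n = 3; edgeR, adjusted p = 1.79e-06 and 0.00375). The 1 higher gene, also looked at after the values were seen, was Cyth1, encoding the β2 integrin partner cytohesin-1, at 91.1 ± 35.9 CPM in tumor mice and 35.6 ± 11.5 CPM in blood mice. Of the other integrin subunits 2 were tested and they moved apart. The α4 chain Itga4 stood at 38.1 ± 19.0 CPM in tumor mice and 199 ± 16.3 CPM in blood mice, and the β1 chain Itgb1 at 349 ± 41.4 CPM in tumor mice and 109.9 ± 28.0 CPM in blood mice (edgeR, adjusted p = 1.60e-06 and 2.59e-06).

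Selectins and the enzymes that build their ligands went both ways, with 4 of 10 lower, 3 higher and 3 not called (median −0.41). St3gal4, a sialyltransferase of selectin ligands, fell by 1.82. Selp, the gene of P-selectin, fell by 1.79, from sums of 12 UMIs in tumor and 84 in blood. Cd24a, encoding a glycoprotein that P-selectin can bind, was higher by 1.66 and the galactosyltransferase gene B4galt5 by 2.13. In the list of immunoglobulin-like and other counter-receptors 3 of 7 were higher and 3 lower. Those higher were the tetraspanin genes Cd9, at 1598 ± 37.5 CPM in tumor mice and 250.1 ± 67.9 CPM in blood mice, and Cd53, by 1.58, and Alcam, by 1.25, while the tetraspanin gene Cd37 fell by 1.31.

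The relatives of Ly6g and Ceacam1 were mostly lower, 3 of 5 tested, with 1 higher. Ly6c2 fell by 1.42 and Ceacam10 by 2.28, and Cd177, which encodes a surface protein of neutrophils, was the other lower gene, whereas Plaur, the urokinase receptor, rose by 1.77 on the log2 scale. Cd177, like Ly6g, was uneven in tumor, at 14.2, 64.9 and 8.56 CPM in mice 1, 2 and 3, against 179, 126 and 87.8 CPM in blood mice. Among 4 genes of hyaluronan binding and of the ERM proteins that tie CD44 to actin, Ezr rose by 0.65 and Msn fell by 0.57, and Tnfaip6, which loads proteins on hyaluronan, had 24 UMIs in tumor and 3 in blood. Among 7 sheddases and proteases, Adam17, which sheds surface proteins of leukocytes, stood at 171 ± 41.3 CPM in tumor mice and 64.9 ± 11.6 CPM in blood mice, and Adam8, looked at after the values were seen, at 312 ± 55.4 CPM in tumor mice and 141 ± 23.0 CPM in blood mice. The protease gene Mmp9 fell by 2.09, Mmp8 fell by 1.91 and Mmp25 fell by 1.38 on the log2 scale. No list was tested as a whole, and the counts are to be read beside the 30.2% of all genes called higher and 29.8% called lower.

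**Figure D5:**
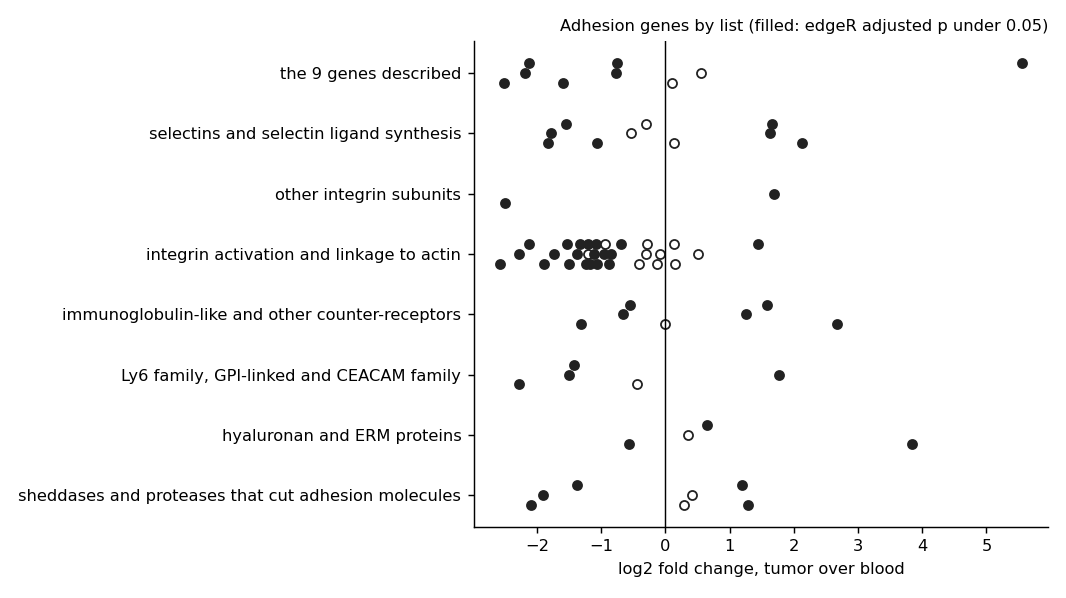
Log2 fold change, tumor over blood, of the tested genes of the 7 lists and of the 9 genes described, 1 point per gene, filled where edgeR's adjusted p was under 0.05. In the list of integrin activation, 19 of 30 points are filled and left of 0 and 1 is filled and right of it.

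By the distance between profiles over the 6 sums, each centred on its own mean, the 3 genes most like Selplg were Rab27a, Kif3b and Nfam1, and among those most like Itgal were Gm47230 and Slco3a1. Those most like Itgam were Eid1, Sephs2 and Prxl2c, and among those most like Itgb2 were Tcp11l2 and Fam49b. Icam1 was nearest to Gadd45b, Cebpb and Bcl2a1b, whose log2 fold changes were 4.78, 4.47 and 5.90, though at distances of 0.609 to 0.617 it was farther from its neighbours than the other genes were from their nearest ones. Ly6g was nearest to Cpt1a, Ly6a2 and Stard5, and Ceacam1 to Mid1ip1, F630028O10Rik and Vrk1. Cd44 was nearest to Baz1a, Grina and Rhoa, and Itgax to Ppig, Phf23 and Arf1.

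In the GENCODE M21 annotation of GRCm38, all 9 are protein coding, and Itgal, Itgam, Itgax and Ceacam1 lie on chromosome 7, where Itgax starts 11056 bases after the end of Itgam. Icam1 spans chr9:21015985-21028817 on the plus strand, Selplg chr5:113818536-113832644 on the minus strand and Ly6g chr15:75155240-75159126 on the plus strand. Some counts are uncertain, since the counting rule is not given: Itgam overlaps Gm49368 on the same strand (9 UMIs in tumor and 35 in blood), Ceacam1 lies antisense to 4732471J01Rik (0 and 4 UMIs) and has a near copy, Ceacam2, and the end of Icam1 lies antisense to Gm47079 (2 and 1 UMIs). Promoter sequences from RefSeq on GRCm38.p6, from 250 bases before to 50 after the start, were at hand for 6 of the 9 genes. The promoter of Icam1, which rose, and those of Ly6g and Ceacam1, which fell and were higher in granule-gene cells than in the others, are shown in the direction of transcription. Capitals mark the NF-kB motif GGAAATTCC in Icam1 and the PU.1 core GAGGAA, on either strand, in Ly6g and Ceacam1.
Icam1, chr9:21015690-21015989, plus strand: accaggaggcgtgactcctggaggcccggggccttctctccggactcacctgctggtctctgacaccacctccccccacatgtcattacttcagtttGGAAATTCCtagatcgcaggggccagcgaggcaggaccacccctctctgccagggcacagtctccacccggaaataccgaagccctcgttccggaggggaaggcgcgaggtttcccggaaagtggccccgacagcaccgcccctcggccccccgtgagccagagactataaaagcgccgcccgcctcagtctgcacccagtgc
Ly6g, chr15:75155011-75155310, plus strand: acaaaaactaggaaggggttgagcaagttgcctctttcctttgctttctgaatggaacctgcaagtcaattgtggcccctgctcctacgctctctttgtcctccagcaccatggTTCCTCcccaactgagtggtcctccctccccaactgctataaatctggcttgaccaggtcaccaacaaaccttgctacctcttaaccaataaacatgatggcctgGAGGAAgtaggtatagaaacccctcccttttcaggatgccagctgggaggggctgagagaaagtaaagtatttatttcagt
Ceacam1, chr7:25477576-25477875, minus strand: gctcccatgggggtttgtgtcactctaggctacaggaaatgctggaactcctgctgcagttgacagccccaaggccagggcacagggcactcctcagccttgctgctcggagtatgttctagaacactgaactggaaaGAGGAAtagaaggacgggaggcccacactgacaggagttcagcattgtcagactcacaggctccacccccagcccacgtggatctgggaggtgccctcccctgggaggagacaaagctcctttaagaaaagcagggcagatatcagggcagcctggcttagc

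The NF-kB motif was found once in the Icam1 promoter, 153 bases before the start, and in 104 of 32851 promoters of this length (0.317%), among them no other of the 6. Ly6g has a second entry, chr15:75155079-75155378, with 3 PU.1 cores against 2 in the one shown. The PU.1 core occurred in the promoters of Itgam, Cd44, Ly6g and Ceacam1 and in 28.3% of all promoters, and its letters are not in the windows of Icam1 and Itgax. These are matches of letters and not measured binding. Selplg, Itgb2 and Itgal were not looked at here.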

How the data were processed

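Neutrophils of tumors and blood from 3 mice were profiled with 1 RNA and 1 hashtag library per tissue. The deposited values are raw UMI counts per gene and barcode and raw hashtag counts per barcode, whole numbers with totals of 1315437 UMIs in tumor and 1969947 in blood over 10000 barcodes each. The submitters' processing notes name STAR and mm10, with no version. For the gene counter, the annotation it used, its strand setting and the choice of barcodes, the tool is not given in the sources used here. A gene listed for a single tissue was given 0 counts in the other.

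Of 963 tumor and 1541 blood barcodes with at least 200 genes, 947 and 1534 had at most 15% mt- UMIs, and 841 and 1375 were assigned to a mouse by a hashtag with at least 70% of the counts. No doublet caller was run beyond this rule, which does not see doublets within a mouse. UMIs were summed per mouse and tissue (70612 to 385370 in tumor, 330296 to 436713 in blood), so precision is lowest in tumor mouse 1. Genes were tested with edgeR 4.0.16 in R 4.3.3 (filterByExpr, TMM, quasi-likelihood, tissue as the only term, Benjamini-Hochberg adjustment over all 3674 genes tested, 0.05). These hold 93.9% of the UMIs. CPM are UMIs scaled to a common total per mouse, without TMM. DESeq2 1.42.0, HTODemux of Seurat 5.3.0 and the other alternatives are given below. Intervals are exact 95% Poisson intervals and cover counting error only. The fitting and thinning steps were tested on simulated data.

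All 9 genes are named. From each list, the called genes named by rule are the 4 with the largest fold changes among those with at least 20 UMIs, and for each of the 9 genes the 3 nearest profiles are named, except for some genes that are not reported here. The genes, lists and tests were chosen with earlier results of these data known.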

Additional observations from a re-analysis of the deposited data

Results flagged for a closer look

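Icam1 and Cd44 stood out in barcodes that entered none of the sums compared between mice. In tumor barcodes with 20 to 60 UMIs, below the cell filter, Icam1 was at 205 CPM (55 UMIs, exact 95% interval 155 to 267), against 12.1 CPM (3 UMIs, 2.51 to 35.5) in those of blood. Cd44 was at 806 CPM (702 to 921) in these tumor barcodes and 518 CPM (432 to 616) in those of blood, although its level in cells was not called different. Icam1 was also at 242 CPM (20 UMIs, 148 to 373) in tumor barcodes that passed the cell filters but had no hashtag with 70% of the counts, against 8.02 CPM (1 UMI, 0.203 to 44.7) in those of blood, values close to those of the assigned cells.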

How the results depend on the processing

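Of 20 alternatives, that of at least 10 hashtag counts removed no assigned cell, so it could change nothing. All 20 left 1 of the 9 genes called higher and 6 called lower. The 7 called genes kept their direction and their side of 0.05 in each, within −2.86 to −2.32 for Selplg, −1.01 to −0.60 for Itgam, −1.04 to −0.65 for Itgb2, −2.48 to −1.91 for Itgal, 5.30 to 6.09 for Icam1, −3.41 to −1.97 for Ly6g and −2.53 to −1.27 for Ceacam1. Itgax was not called in the 19 settings in which it entered the fit. Cd44, never called, turned to −0.10 with at least 300 genes per cell, −0.19 without the low-count filter and −0.025 without granule-gene cells, settings that moved the median gene by −0.088, −0.24 and −0.088 in that order. Leaving out each mouse in turn moved Cd44 between −0.059 and 0.17, with −0.033 without blood mouse 2. With thinned cells, where fewer UMIs and genes entered, 1351 of 2083 genes tested were called, against 2205 of 3674. HTODemux together with the loss of tumor mouse 2 was added after seeing the data and changed no call of the 9. Deviations of same-numbered sums correlated at 0.0226, 0.00893 and −0.0228 across genes, and those of differently numbered sums at −0.0501 to 0.0512. Counting error also enters these deviations, so they cannot decide whether a hashtag number marks the same mouse in both tissues. A fit with the hashtag number as a replicate block called 1973 genes and changed no call of the 9. Thinning to 572 UMIs gave Itgax −0.85 percentage points in tumor minus blood, opposite to its main value of 0.77, and moved Cd44 to −6.21 from −1.32. Tumor counts of 2 or 3 UMIs per mouse limit Ly6g and Ceacam1 in mice 1 and 3, and those of Icam1 limit blood.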
